A study of Mus musculus with 12 samples.

Results

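Antigen receptor signals in T cells switch on a small group of early genes, and 9 of them were followed here among the 19309 genes measured: the EGR transcription factors Egr1, Egr2 and Egr3, their corepressor Nab2, the orphan nuclear receptors Nr4a1 and Nr4a3, the AP-1 subunits Fos and Junb, and the surface receptor Cd69. The genes were taken by name, each through its single probe set with 1 gene symbol (a probe set is a group of array probes summarised to 1 value). Whole-transcript arrays measured total RNA of thymus from 12 FVB/N samples. The Dnmt3a-deficient tumors (n = 4) were MYC-induced T-cell lymphomas in which the DNA methyltransferase gene Dnmt3a had been deleted in blood cells, taken at the terminal stage. The control tumors (n = 5) were MYC-induced lymphomas at the same stage, with Dnmt3a labelled wild type. The normal thymocytes (n = 3) were wild-type cells without tumor, with the age given as 24 dpn. The sources used here do not name the driver of MYC or of the deletion, nor say that each array was a separate animal, so the p-values cover the variation among these 12 samples, which may be technical. Such an age is stated for the normal thymocytes alone, and age and tumor state cannot be told apart.

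In the thymus, binding of the T cell receptor to self-peptide activates calcium and RAS-ERK signaling. ERK acts on the Egr, Fos and Junb promoters through serum response factor, its ETS-family partners and CREB, while calcium acts on the Nr4a genes through MEF2 and NFAT. Nr4a1 and Cd69 are in wide use as reporters of such signals, EGR factors drive positive selection, and NAB proteins bind EGR factors and hold their activity in check. Fos and JUN-family proteins pair to form the AP-1 complex, and Cd69 keeps selected cells in the tissue by blocking the egress receptor S1pr1.

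RefSeq start-site sequences (mouse build GRCm38.p6) were used for 6 of the 9 genes. Egr3 and Cd69 had none in the reference used, and Egr1 was left out of the search. Sequences of 5 genes are printed because these genes moved alike or apart in the results below. Each line holds the 250 bases before a start, from 5′ to 3′. Capitals mark a CArG box, the site of serum response factor, and TGACG, the core of a CREB site, which reads CGTCA on the other strand. Egr2 has 5 listed starts, of which the third along the chromosome is shown (chr10:67537619-67537868, plus strand), beside Nr4a1 (chr15:101266596-101266845, plus strand), Nr4a3 (chr4:48045055-48045304, plus strand), Junb (chr8:84978749-84978998, minus strand) and Fos (chr12:85473640-85473889, plus strand).
Egr2: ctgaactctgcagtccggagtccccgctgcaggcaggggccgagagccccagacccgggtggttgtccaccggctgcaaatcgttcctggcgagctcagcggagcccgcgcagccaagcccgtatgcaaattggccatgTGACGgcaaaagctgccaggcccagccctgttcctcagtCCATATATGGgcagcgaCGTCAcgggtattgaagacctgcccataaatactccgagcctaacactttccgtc
Nr4a1: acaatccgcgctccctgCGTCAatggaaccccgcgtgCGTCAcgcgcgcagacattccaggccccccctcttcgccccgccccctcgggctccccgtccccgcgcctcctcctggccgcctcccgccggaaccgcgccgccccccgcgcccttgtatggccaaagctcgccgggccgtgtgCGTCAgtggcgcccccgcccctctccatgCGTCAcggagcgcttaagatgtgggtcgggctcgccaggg
Nr4a3: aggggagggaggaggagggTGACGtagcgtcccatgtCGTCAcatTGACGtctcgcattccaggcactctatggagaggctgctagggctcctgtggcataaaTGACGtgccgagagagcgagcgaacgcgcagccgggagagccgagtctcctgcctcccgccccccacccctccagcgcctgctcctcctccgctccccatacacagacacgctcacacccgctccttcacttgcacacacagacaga
Junb: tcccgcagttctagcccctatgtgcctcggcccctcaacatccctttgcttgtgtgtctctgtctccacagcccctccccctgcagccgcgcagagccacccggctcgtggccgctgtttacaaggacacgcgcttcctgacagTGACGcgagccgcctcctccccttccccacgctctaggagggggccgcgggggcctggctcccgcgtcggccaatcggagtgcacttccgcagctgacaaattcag
Fos: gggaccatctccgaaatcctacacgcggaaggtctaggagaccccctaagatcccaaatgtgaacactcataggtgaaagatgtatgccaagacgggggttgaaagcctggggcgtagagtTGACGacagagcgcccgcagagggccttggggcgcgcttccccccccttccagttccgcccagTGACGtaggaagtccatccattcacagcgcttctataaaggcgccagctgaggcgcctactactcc
TGACG stood on either strand of all 5 printed windows, 4 times each in Nr4a1 and Nr4a3. It was not in the window of Nab2, the other gene searched. Among 32851 windows of all genes, 17.8% held it. A CArG box was found in Egr2, at 72 bases before the start shown, and in none of the other 5 genes searched. Of all windows, 1.47% held one, and Egr2 had 5 windows, more than any other gene searched. The full CREB palindrome TGACGTCA, which contains TGACG (1.55% of all windows), the AP-1 site TGAGTCA (4.46%) and the NR4A site AAAGGTCA (1.34%) matched none of these genes. An EGR site, GCGTGGGCG or GCGGGGGCG (3.06%), matched Nr4a1 alone of the 6. All motifs were searched on both strands, and a match is a run of letters and not a measured binding site. Sites beyond 250 bases before a start were not searched, so a gene without a match here may hold one there.

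The arrays were checked before the genes were compared. Dnmt3a averaged 7.42 ± 0.20 on the log2 scale in Dnmt3a-deficient tumors, 8.67 ± 0.53 in control tumors and 9.48 ± 0.15 in normal thymocytes (SD; n = 4, 5 and 3), so the deficient tumors were lower than control tumors by -1.25 (SE 0.229, limma adjusted p = 0.0317) without being at the floor. That call ended without normal thymocytes 1, 2 or 3, control tumor 3 or deficient tumors 1, 3 or 4 (adjusted p = 0.0568 to 0.108). Between the tumor groups the co-receptor gene Cd8a differed by 0.38 (adjusted p = 0.801) and the mouse Myc gene by -0.24 (adjusted p = 0.619). T-lineage transcripts were present in every array: Cd3e lay at 11.37 to 11.62 in deficient tumors, 10.35 to 11.68 in control tumors and 11.47 to 11.75 in normal thymocytes. A list of 14 T-lineage markers averaged 8.55 to 9.75 in deficient tumors, 8.50 to 9.93 in control tumors and 10.89 to 10.94 in normal thymocytes, and against normal thymocytes 9 of the 14 were called lower in deficient tumors (64.3%, with 19.0% of all genes) and 10 in control tumors (71.4%, with 11.3% of all genes). A list of 15 neutrophil markers averaged 5.41 to 5.99 in deficient tumors, 5.66 to 5.92 in control tumors 1, 2 and 5, 7.65 and 7.55 in control tumors 3 and 4, and 6.23 to 6.67 in normal thymocytes. A macrophage list of 14 genes reached 7.57 in deficient tumors, 7.74 in control tumors and 6.74 in normal thymocytes, and against normal thymocytes 3 of its genes were called higher in deficient tumors (21.4%, close to the 18.7% of all genes) and 1 in control tumors (7.14%, with 13.0% of all genes). Upper quartiles of the deposited values were higher in the deficient tumors and in control tumors 1 and 2 (8.50 to 8.60) than elsewhere (8.13 to 8.30). Every deficient tumor was in the higher set and every normal array in the lower. Between those groups, a difference in scaling and a difference in expression cannot be fully told apart. In bulk samples such as these, fewer cells of a type and less RNA per cell cannot be told apart.

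Against normal thymocytes, 6 of the 9 early genes were called lower in Dnmt3a-deficient tumors and 2 were called lower in control tumors. None of the 9 passed the threshold between the tumor groups. Dnmt3a-deficient tumors against normal thymocytes gave 6 of 9 genes called lower (Egr1, Egr2, Nab2, Nr4a1, Nr4a3 and Junb) and none higher at a limma adjusted p under 0.05, while 19.0% of all genes were called lower and 18.7% higher (37.6% in all). Control tumors against normal thymocytes gave 2 of 9 called lower (Nr4a3 and Junb) and none higher, against 11.3% and 13.0% of all genes (24.4% in all). Dnmt3a-deficient tumors against control tumors gave no call among the 9, where 0.228% of all genes were called lower and 0.590% higher (0.818% in all). At an unadjusted limma p under 0.05, 6 of 9 genes were lower in deficient tumors against normal thymocytes (25.1% of all genes), 4 in control tumors against normal thymocytes (18.9%) and 2, Egr1 and Nab2, in deficient against control tumors (7.58%). Every array of the first group lay below every array of the second for 4 of 9 genes in deficient tumors against normal thymocytes (26.7% of all genes), for 3 in control tumors against normal thymocytes (14.0%) and for none between the tumor groups (2.35%), and none of the 9 lay wholly above (23.0%, 13.8% and 3.80% of all genes). The share of lower genes among all calls moved with the scaling, from 27.8% between the tumor groups to 12.4% after median centring, 40.5% after a second quantile normalization and 40.8% after cyclic loess, and from 50.4% to 39.6% after median centring in deficient tumors against normal thymocytes. The median log2 difference of the 9 genes was -0.41 in deficient against control tumors (-0.01 over all genes), -0.52 in control tumors against normal thymocytes (-0.08) and -0.91 in deficient tumors against normal thymocytes (-0.10). The comparisons with normal thymocytes share the same 3 normal arrays, and a gene called in 1 of them and not in the other is not thereby shown to differ between tumor groups.

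**Figure D1:**
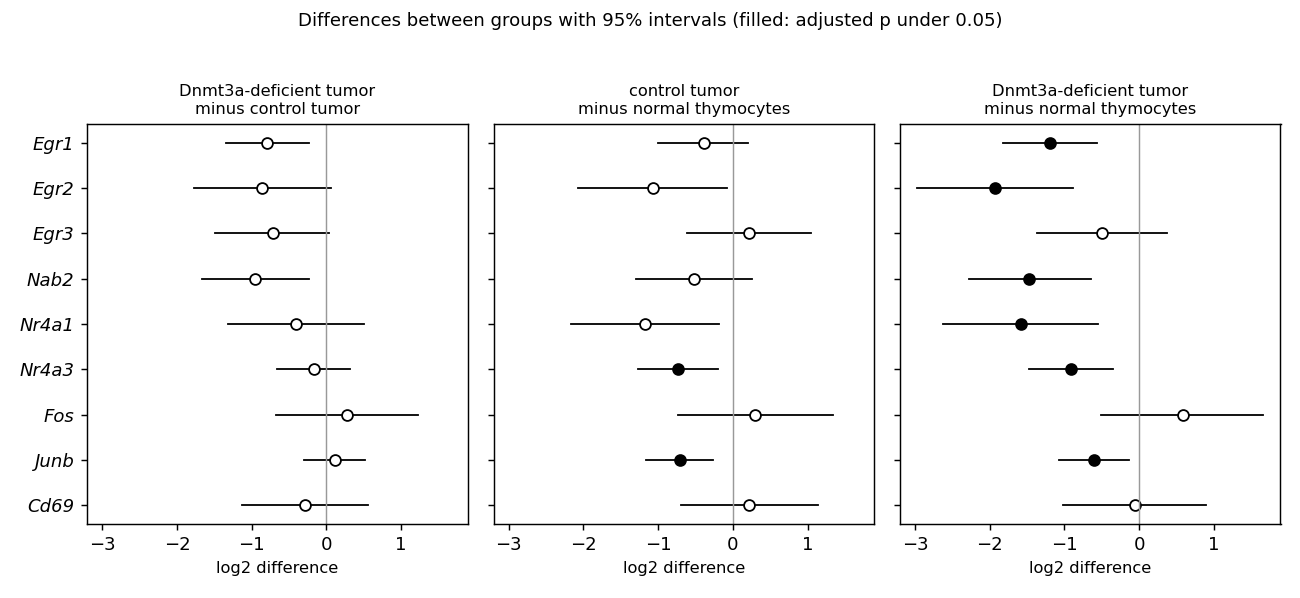
Log2 differences (horizontal axis) of the 9 genes (vertical axis) with 95% limma intervals in 3 comparisons, each named as first group minus second; filled points have an adjusted p under 0.05. The third panel has 6 filled points, all left of 0, the second has 2 and the first has none.

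Egr1 and Egr2 averaged lowest in Dnmt3a-deficient tumors and highest in normal thymocytes. Egr1, the founding member of the family, had log2 values of 6.95, 7.84, 6.61 and 6.68 in deficient tumors 1 to 4, against 8.05, 7.68, 7.70, 8.16 and 7.47 in control tumors 1 to 5 and 7.74, 8.30 and 8.59 in normal thymocytes. Deficient tumors 1, 3 and 4 lay below every other array, and deficient tumor 2 lay among the control tumors. Deficient tumors were 2.28-fold lower than normal thymocytes (log2 difference -1.19, SE 0.292, limma adjusted p = 0.00637). Against control tumors the difference was -0.80 (SE 0.257, 95% interval -1.35 to -0.24, adjusted p = 0.13), and control tumors differed from normal thymocytes by -0.39 (interval -1.0 to 0.21).

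Egr2, which acts with Egr3 during positive selection and in NKT cell development, had the largest difference of the 9 genes between deficient tumors and normal thymocytes. Its values were 6.52, 7.49, 6.24 and 6.31 in deficient tumors, against 6.91, 6.37, 7.95, 8.96 and 7.30 in control tumors and 8.48, 8.56 and 8.67 in normal thymocytes. The normal arrays spanned 0.19 units and the control tumors 2.59, with control tumor 4 above every normal array and control tumors 1, 2 and 5 within the range of the deficient tumors. The deficient tumors were 3.81-fold lower than normal thymocytes (log2 difference -1.93, SE 0.484, limma adjusted p = 0.00715) without overlap. Control tumors differed from normal thymocytes by -1.07 (SE 0.463, adjusted p = 0.113), and this became a call without control tumor 4 (-1.44, adjusted p = 0.0104). Leaving out control tumors 3 and 4, the arrays with the highest neutrophil markers, gave -1.71 (adjusted p = 0.00266). These were also the control tumors with the highest Egr2, so leaving them out lowers the control mean whatever the neutrophil content.

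Egr3, the third EGR factor, was called in no comparison. It had 6.72, 8.54, 6.76 and 6.81 in deficient tumors, 7.42, 7.48, 8.32, 8.56 and 7.88 in control tumors and 7.78, 7.77 and 7.58 in normal thymocytes. Deficient tumors 1, 3 and 4 were again below all other arrays, while deficient tumor 2 lay between the 2 highest control tumors. Deficient tumors differed by -0.72 from control tumors (interval -1.49 to 0.04) and by -0.50 from normal thymocytes (-1.37 to 0.37), and control tumors from normal thymocytes by 0.22 (-0.61 to 1.05). Without deficient tumor 2, Egr3 was called lower in deficient tumors than in normal thymocytes (-0.94, limma adjusted p = 0.017).

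**Figure D2:**
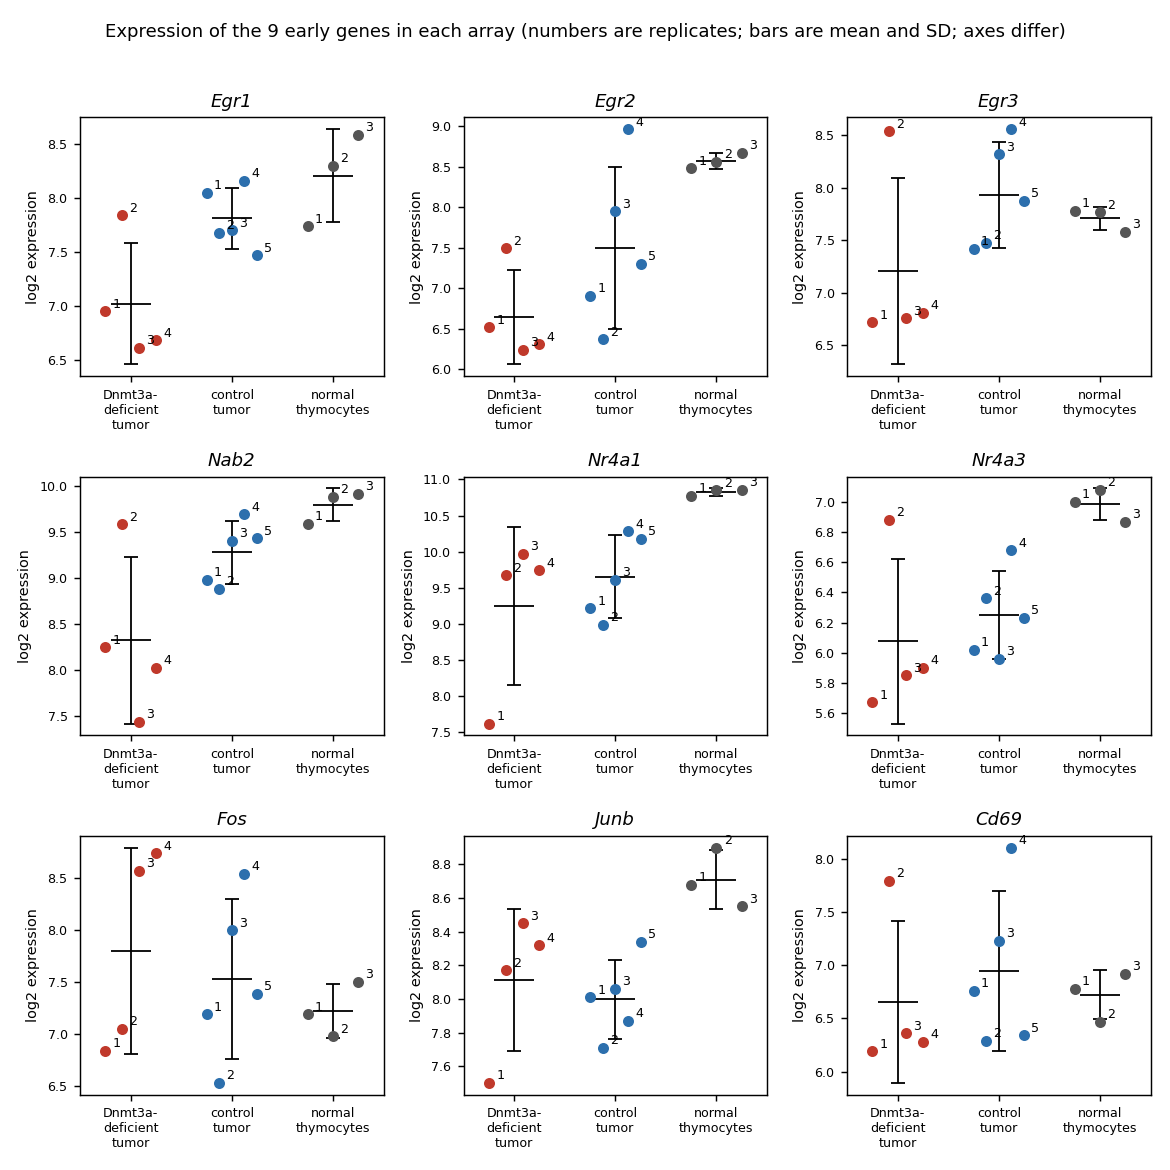
Log2 expression (vertical axis, a separate range per panel) of the 9 genes in each array by group (horizontal axis), with replicate numbers beside the points and bars for mean and SD. Deficient tumor 2 stands above the other 3 deficient tumors for Egr1, Egr2, Egr3, Nab2, Nr4a3 and Cd69, and deficient tumor 1 stands below them for Nr4a1 and Junb.

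The corepressor Nab2, itself an EGR target, went the way of Egr1, while its paralog Nab1 went the other way. Nab2 had 8.25, 9.58, 7.44 and 8.03 in deficient tumors, against 8.98, 8.88, 9.40, 9.69 and 9.43 in control tumors and 9.59, 9.88 and 9.91 in normal thymocytes. All 4 deficient tumors were below all normal arrays, and deficient tumor 2 missed the lowest of them by 0.01 units. Nab2 was 2.77-fold lower in deficient tumors than in normal thymocytes (log2 difference -1.47, SE 0.378, limma adjusted p = 0.00832). It differed by -0.95 between deficient and control tumors (SE 0.332, interval -1.67 to -0.23, adjusted p = 0.149) and by -0.52 between control tumors and normal thymocytes (interval -1.30 to 0.26). Nab1 had 8.30, 9.66, 8.78 and 8.52 in deficient tumors, against 8.47, 8.53, 7.28, 8.19 and 8.41 in control tumors and 6.81, 6.81 and 6.20 in normal thymocytes. Every tumor was above every normal array, by log2 2.21 in deficient tumors (SE 0.341, adjusted p = 0.000252) and 1.57 in control tumors (SE 0.326, adjusted p = 0.00317), calls that were kept in each of 23 alternative settings.

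The NR4A receptors also split. Nr4a1 (Nur77) had 7.61, 9.67, 9.97 and 9.74 in deficient tumors, against 9.21, 8.98, 9.61, 10.28 and 10.18 in control tumors and 10.77, 10.85 and 10.86 in normal thymocytes. Its normal arrays lay within 0.10 units of each other and above all 9 tumors. The deficient tumors were 2.99-fold lower than normal thymocytes (log2 difference -1.58, SE 0.480, limma adjusted p = 0.0199), a call that ended without normal thymocytes 2 (adjusted p = 0.0599) or 3 (0.0568); without deficient tumor 1, the lowest array, the difference was -1.04 (adjusted p = 0.0199). Control tumors differed by -1.18 (SE 0.459, adjusted p = 0.0809), a difference that was called without deficient tumor 1 (adjusted p = 0.00716), which enters through the shared estimate of spread, and in the fit of those 2 groups alone (0.0179). The tumor groups differed by -0.41 (interval -1.32 to 0.50), which turned to 0.14 without deficient tumor 1.

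Nr4a3 (Nor1) had low values throughout, at 5.67, 6.88, 5.85 and 5.90 in deficient tumors, 6.02, 6.36, 5.96, 6.68 and 6.23 in control tumors and 7.0, 7.08 and 6.87 in normal thymocytes. All control tumors lay below the normal arrays, as did deficient tumors 1, 3 and 4, and deficient tumor 2 fell between normal arrays. The difference from normal thymocytes was -0.91 in deficient tumors (SE 0.259, limma adjusted p = 0.0143; 0.0537 without normal thymocytes 2) and -0.74 in control tumors (SE 0.248, adjusted p = 0.045). The call in control tumors was marginal and ended when any of normal thymocytes 1, 2 or 3, control tumors 1, 2, 3 or 5, or deficient tumors 3 or 4 was left out, with adjusted p-values of 0.0539 to 0.146. The tumor groups differed by -0.17 (interval -0.66 to 0.32).

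Nr4a2 (Nurr1), the remaining receptor of the family, rose in both tumor groups. It had 8.07, 8.75, 9.11 and 9.01 in deficient tumors, against 8.60, 7.60, 7.26, 8.09 and 8.63 in control tumors and 6.53, 6.72 and 6.64 in normal thymocytes. No tumor overlapped the normal arrays. The log2 difference from normal thymocytes was 2.11 in deficient tumors (4.31-fold, SE 0.327, limma adjusted p = 0.000262) and 1.41 in control tumors (2.65-fold, SE 0.312, adjusted p = 0.00484), and each was called in all 23 alternative settings. Between the tumor groups it was 0.70 (SE 0.287, adjusted p = 0.199).

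**Figure D3:**
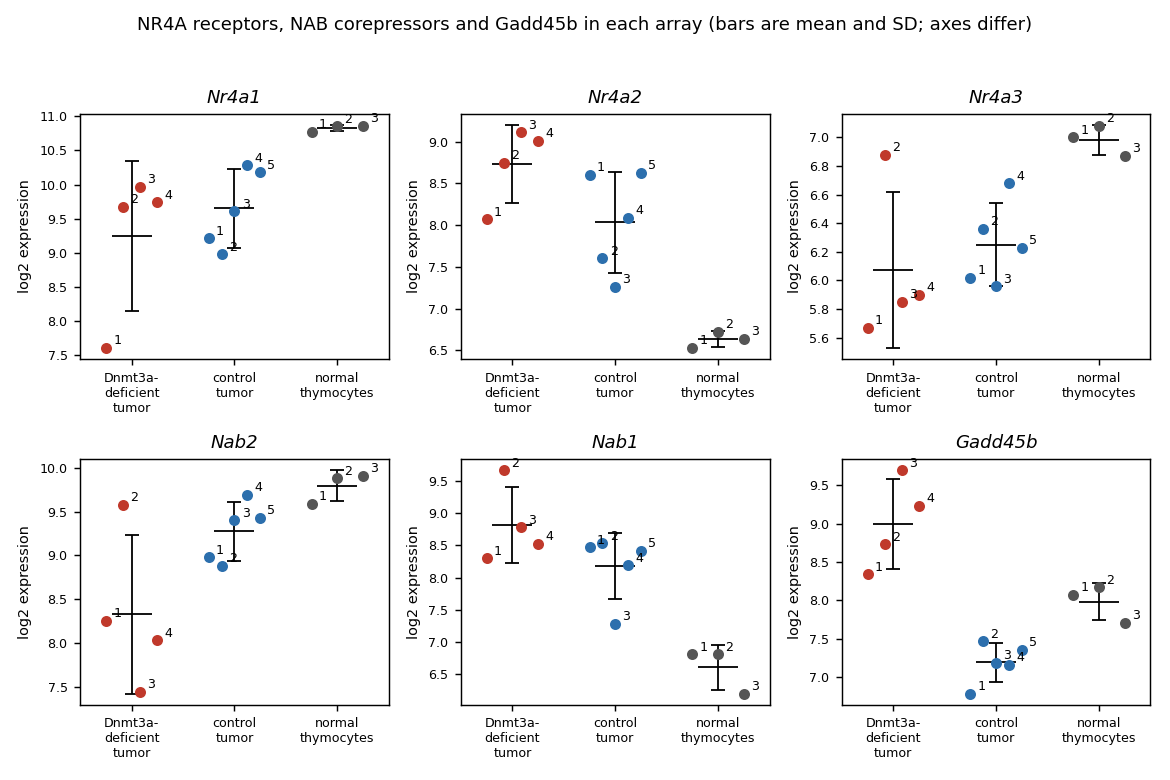
Log2 expression (vertical axis, a separate range per panel) by group (horizontal axis) of the receptors Nr4a1, Nr4a2 and Nr4a3, the corepressors Nab2 and Nab1, and Gadd45b, with replicate numbers and bars for mean and SD. All 9 tumors lie above the normal arrays for Nr4a2 and Nab1 and below them for Nr4a1, and the deficient tumors lie above both other groups for Gadd45b.

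Of the AP-1 subunits, Junb was called lower in both tumor groups and Fos was called in no comparison. Junb, a JUN-family protein, had 7.50, 8.17, 8.45 and 8.32 in deficient tumors, against 8.01, 7.71, 8.06, 7.87 and 8.34 in control tumors and 8.68, 8.90 and 8.55 in normal thymocytes, so all tumors were below the normal arrays. The difference was -0.60 in deficient tumors (SE 0.217, limma adjusted p = 0.0441) and -0.71 in control tumors (SE 0.208, adjusted p = 0.0231). The call in control tumors ended without normal thymocytes 1 (adjusted p = 0.0623) or 2 (0.109). That in deficient tumors was lost in 13 of 23 settings, among them leaving out normal thymocytes 1, 2 or 3, control tumors 1, 3 or 4, or deficient tumors 1, 2 or 4 (adjusted p = 0.0501 to 0.153). Between the tumor groups Junb differed by 0.11 (interval -0.30 to 0.52), and this sign turned under 2 of the 3 scalings tried.

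Fos had 6.84, 7.05, 8.57 and 8.74 in deficient tumors, against 7.19, 6.53, 8.0, 8.54 and 7.39 in control tumors and 7.19, 6.98 and 7.50 in normal thymocytes. Deficient tumors 3 and 4 and control tumors 3 and 4 were above the normal arrays and the other tumors were within or below their range. No difference was called: 0.58 in deficient tumors against normal thymocytes (interval -0.51 to 1.66), 0.30 in control tumors against normal thymocytes (-0.74 to 1.34) and 0.27 between the tumor groups (-0.68 to 1.23). Control tumors 3 and 4, the 2 with the highest neutrophil markers, were also the 2 highest control tumors for Fos, Egr2, Egr3 and Cd69. Without them the difference of control tumors from normal thymocytes was -0.19 for Fos, -0.12 for Egr3 and -0.26 for Cd69, none called. Leaving out the highest arrays lowers these control means by construction, whatever the neutrophil content. Deficient tumors 3 and 4 had neutrophil averages of 5.99 and 5.41, below every normal array. The part of neutrophils in these values was not tested.

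Cd69, a lectin-like receptor that appears within hours of T cell activation, had 6.19, 7.80, 6.36 and 6.28 in deficient tumors, against 6.76, 6.29, 7.23, 8.11 and 6.34 in control tumors and 6.78, 6.47 and 6.92 in normal thymocytes. Deficient tumor 2 and control tumors 3 and 4 were above the normal arrays, deficient tumors 1, 3 and 4 and control tumors 2 and 5 were below them, and control tumor 1 was among them. The groups did not separate: the differences were -0.29 between the tumor groups (interval -1.13 to 0.55), 0.22 in control tumors against normal thymocytes (-0.69 to 1.14) and -0.06 in deficient tumors against normal thymocytes (-1.02 to 0.89).

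Seen array by array, the genes moved in sets within the tumors. Deficient tumor 2 was the highest of the 4 deficient tumors for 6 genes, Egr1, Egr2, Egr3, Nab2, Nr4a3 and Cd69, and deficient tumor 1 was the lowest for 6. Control tumor 4 was the highest of the 5 control tumors for 8 genes, all but Junb, and control tumor 2 was the lowest for 6. All 9 genes lay below the range of the normal arrays in deficient tumor 1 and control tumor 2, as did 43.6% and 40.0% of all genes. In deficient tumors 3 and 4 each, 8 genes lay below it (43.1% and 45.0% of all genes) and Fos above, and in control tumor 4 the count was 3 below and 4 above (38.5% and 29.3% of all genes). Control tumor 2 also had the one high average of 9 adipocyte markers (8.42, against 5.37 to 5.51 in the other control tumors), and the part of these markers and of the neutrophil markers in the early gene values was not tested. Over the 9 tumor arrays Pearson's r was 0.93 for Egr3 with Nab2, 0.89 for Egr1 with Nab2, 0.87 for Egr2 with Cd69 and 0.76 for Nr4a1 with Junb, against -0.33 for Egr1 with Fos; the values describe 9 arrays that also share their group, and carry no test.

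**Figure D4:**
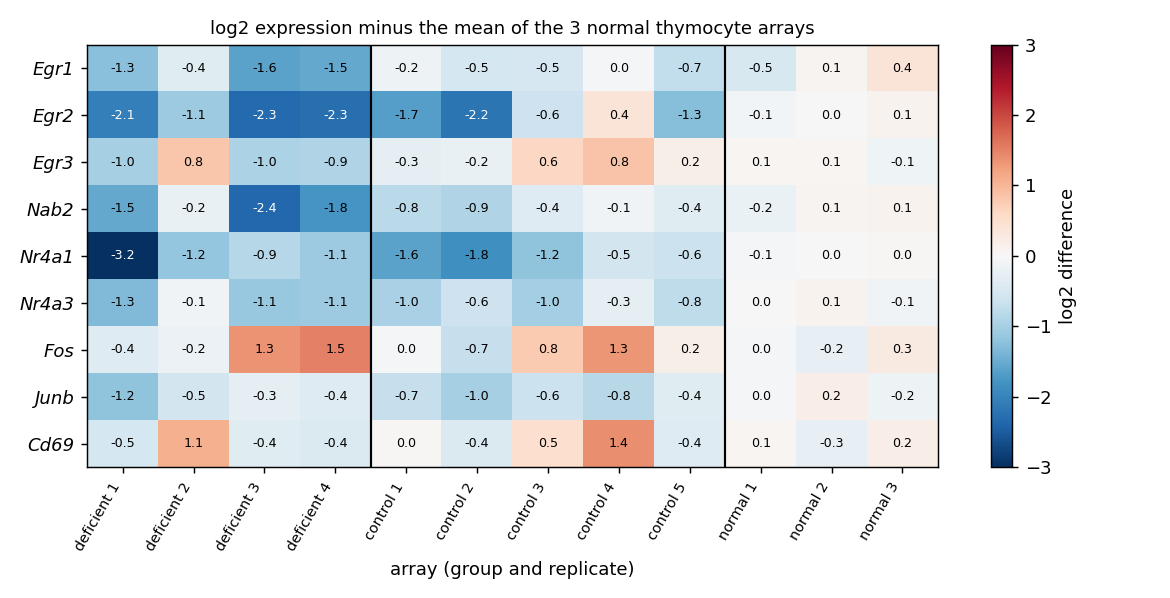
Log2 expression of the 9 genes (vertical axis) in each array (horizontal axis) minus the mean of the 3 normal arrays, with colour running from blue (lower) to red (higher). Deficient tumors 1, 3 and 4 are low for Egr1, Egr2, Egr3 and Nab2 while deficient tumor 2 is near or above the normal level for Egr3 and Cd69, and Fos is high in deficient tumors 3 and 4.

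The comparison of Dnmt3a-deficient with control tumors asks whether loss of the enzyme changed these genes in the lymphoma. Without deficient tumor 2, 3 of the 9 genes were called lower in deficient than in control tumors: Nab2 (-1.37, limma adjusted p = 0.0195), Egr1 (-1.07, 0.0426) and Egr3 (-1.16, 0.0488), where 0.259% of all genes were called lower. That array was the highest deficient tumor for these same genes, so leaving it out lowers their deficient means by construction. Array weights were estimated from these same values, lower for arrays that depart from their group, and were lowest for control tumors 1 and 2 (0.441 and 0.39). With these weights Egr2 was called beside Nab2, Egr1 and Egr3 (4 of 9, against 5.58% of all genes). Control tumors 1 and 2 had the lowest Egr2 of the control tumors (6.91 and 6.37), so less weight for them widens its difference. Without control tumors 1 and 2, Egr2 (-1.43, limma adjusted p = 0.0135) and Nab2 (-1.18, adjusted p = 0.0364) were called, against 9.24% of all genes. The control tumors then left had lower upper quartiles (8.25 to 8.30) than every deficient tumor (8.50 to 8.60). In that fit, scaling and expression cannot be told apart, and the array weights lean the comparison the same way. Without control tumors 3 and 4 the differences of Egr2 and Nab2 were -0.22 and -0.77 and none of the 9 was called. With all arrays, none of the 9 passed.

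Other immediate early genes were counted over a list of 40. Deficient tumors against normal thymocytes had 12 lower and 5 higher (median -0.23), which is 30% and 12.5% of the list against 19.0% and 18.7% of all genes. Control tumors against normal thymocytes had 13 lower and 2 higher (median -0.32), which is 32.5% and 5% against 11.3% and 13.0% of all genes. The antiproliferative gene Btg1 was lower by -2.44 in deficient tumors (SE 0.257, limma adjusted p = 1.35e-05) and -2.10 in control tumors (SE 0.246, adjusted p = 4.65e-05). The nuclear protein gene Csrnp1 was lower by -1.75 in deficient tumors (adjusted p = 8.57e-05) and -2.04 in control tumors (adjusted p = 2.91e-05). Dusp2, an ERK phosphatase, was lower by -2.08 in deficient tumors (adjusted p = 0.00211) and -1.48 in control tumors (adjusted p = 0.0177). Between the tumor groups 2 genes were higher in deficient tumors (5%, against 0.590% of all genes) and none lower. Gadd45b, a stress sensor linked to DNA demethylation, had 8.34, 8.73, 9.69 and 9.23 in deficient tumors, against 6.79, 7.47, 7.19, 7.16 and 7.36 in control tumors and 8.07, 8.17 and 7.71 in normal thymocytes. Every deficient tumor was above every control tumor and every normal array, by 1.80 over control tumors (SE 0.240, adjusted p = 0.0144), a call that ended in a fit of the tumor groups alone (adjusted p = 0.0537) and without control tumors 3 and 4 (0.0768). Ptger4, a prostaglandin E2 receptor, was higher by 1.37 (SE 0.245, adjusted p = 0.03), a call that ended in 10 of 23 settings, with an adjusted p of 0.0512 to 0.113 when normal thymocytes 1, 2 or 3, control tumors 3 or 4, or deficient tumors 3 or 4 were left out.

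Genes upstream in the signaling chain held calls in both directions. In the chain from receptor to ERK and serum response factor, 16 of 27 listed genes were tested: 9 were lower and 3 higher in deficient tumors against normal thymocytes (median -0.58, with -0.10 over all genes), and 5 lower and 3 higher in control tumors (median -0.27, with -0.08 over all genes). The lower calls were 56.2% of the tested genes in deficient tumors and 31.2% in control tumors, against 19.0% and 11.3% of all genes, and the higher calls 18.8% in each, against 18.7% and 13.0%. The kinases Braf (1.60 in deficient, 1.23 in control tumors) and Rps6ka3 (1.88 and 1.93) rose, while the adaptor Lat fell (-1.15 and -1.07, limma adjusted p = 0.000528 and 0.000929). For Rps6ka3 the normal arrays were uneven (8.47, 6.85 and 8.32), so the size of its rise is imprecise. Elk3, an ETS-family partner of serum response factor, was lower in deficient tumors by -1.81 against normal thymocytes (adjusted p = 7.57e-05). It was lower by -1.06 against control tumors (adjusted p = 0.0439), a call lost in 10 of 23 settings, including each fit without a normal array, without control tumor 3 or without deficient tumors 1, 3 or 4. Of 20 genes from calcium to NFAT and MEF2, 5 were lower and 4 higher in deficient tumors and 6 lower and 2 higher in control tumors. In deficient tumors these are 25% and 20% of the list, close to the 19.0% and 18.7% of all genes, and in control tumors 30% and 10%, against 11.3% and 13.0%. The calcium sensor Stim1 (-1.13 and -1.37) fell and the calcineurin catalytic subunit Ppp3ca (1.87 and 1.44) rose in deficient and control tumors. Between the tumor groups 1 of the 20 was called, Itpr3, which is 5% of the list against 0.590% of all genes. It was higher in deficient tumors by 1.05 (SE 0.16, limma adjusted p = 0.0171). That call ended in 2 of the fits that left out a single array (adjusted p = 0.0513 and 0.0575).

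Of 16 AP-1 partner genes, 3 were lower and 2 higher in deficient tumors against normal thymocytes and 4 lower and 1 higher in control tumors. The 18.8% lower in deficient tumors is close to the 19.0% of all genes, and the 25% in control tumors stands beside 11.3%. Bach2, a repressor of AP-1 sites in lymphocytes, fell by 2.15 and by 1.97 (limma adjusted p = 2.85e-06 and 6.27e-06). Of 25 genes of thymic selection and strong receptor signals, 13 were lower in deficient tumors (52%, against 19.0% of all genes; median -0.81, against -0.10) and 12 in control tumors (48%, against 11.3%; median -0.80, against -0.08), and none was higher in either. Cd5, whose level follows receptor signal strength, fell by 1.97 in deficient tumors (adjusted p = 0.00306) and differed by -0.52 in control tumors (adjusted p = 0.399). Every control tumor (10.65 to 11.10) was nevertheless below every normal array (11.33 to 11.39) for Cd5, as for 14.0% of all genes. The wide spread of the deficient tumors (SD 1.12, with 0.17 in control tumors) enters that p-value through the shared estimate of spread. The 4-1BB receptor Tnfrsf9 (-1.67 and -1.69) and the CD4-lineage factor Zbtb7b (-1.35 and -1.74) fell in deficient and in control tumors. Between the tumor groups 2 genes of the list, Gata3 and Cd27, were called lower in deficient tumors (8%, against 0.228% of all genes) and none higher. Gata3, a factor of early and CD4-lineage T cells, differed by -1.08 (adjusted p = 0.0197), a call lost in 7 of 23 settings, among them without control tumors 3 or 4 or deficient tumors 3 or 4 (adjusted p = 0.0578 to 0.0744). The costimulatory receptor Cd27 differed by -1.30 (adjusted p = 0.0477), a call lost in 10 of 23 settings, among them without normal thymocytes 1, 2 or 3, control tumors 3 or 4, or deficient tumors 2, 3 or 4 (adjusted p = 0.077 to 0.168). Of 15 heat shock and tissue handling genes, 6 were higher and 2 lower in deficient tumors against normal thymocytes and 7 higher and 2 lower in control tumors. Hsp90aa1 led them (3.33 and 3.18), but its normal arrays were uneven (9.31, 7.57 and 10.04), so these sizes are imprecise. The higher calls were 40% and 46.7% of the list, against 18.7% and 13.0% of all genes, and the lower calls 13.3% in each, against 19.0% and 11.3%. Their part in the early gene results was not tested.

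The genes whose pattern was most like the mean of the 9 standardised genes over the 12 arrays were Nudt18 (Pearson r 0.975), Klhl25 (0.952), S100a7a (0.949), Klf2 (0.945) and Cyp46a1 (0.939). Over the 9 tumor arrays alone they were Bdh2 (0.980), Nudt18 (0.974), Batf3 (0.964), Hrnr (0.963) and Cxcl15 (0.951). Several of these matches are dim: Cxcl15 lay at 3.69 to 4.16, Bdh2 at 4.99 to 5.95 and Cyp46a1 at 5.32 to 6.13 over the 12 arrays, below the arrays' medians of 6.40 to 6.58, and Hrnr at 5.15 to 6.44. Klf2, a zinc finger factor of quiescent T cells, had 7.41, 8.75, 7.88 and 7.79 in deficient tumors, against 7.70, 7.70, 8.88, 9.19 and 8.23 in control tumors and 8.83, 8.76 and 8.73 in normal thymocytes. Deficient tumor 2 and control tumors 3 and 4 were again near or above the normal arrays. Taken singly, the best match was Klhl25 for Egr2 (0.971), Iqcf5 for Egr3 (0.958), Hexim1 for Nr4a1 (0.927) and Pfn2 for Junb (0.926). The best of 19309 genes over 12 arrays reach high values by selection, and the matches are descriptions.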

How the data were processed

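The authors deposited log2 expression values, 1 per probe set. The submitters' processing notes name RMA and Affymetrix Expression Console; their versions, and whether the 12 arrays were normalized together, were not given in the sources used here. Of 23858 probe sets, 20870 had 1 gene symbol in the platform annotation; for genes with several sets the brightest on average was kept, leaving 19309 genes, with no filter on dim genes. Groups and replicate numbers came from the sample titles.

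Tests were run in limma 3.58.1 under R 4.3.3: 1 model of 3 group means over 12 arrays (9 residual degrees of freedom), 3 contrasts, two-sided p-values adjusted by Benjamini-Hochberg over all 19309 genes, and calls at 0.05. Differences are first group minus second, with 95% limma intervals. The steps were tested on simulated data. The 9 genes, the related lists and the rule for named genes were chosen with earlier results of these data known. That rule names all 9, up to 4 called genes per list and the genes most alike in pattern. The text prints part of the genes the rule names, and Egr4 outside it as the remaining EGR gene. Alternatives covered scaling, filtering, arrays left out, array weights and variance models. The number of arrays limits the precision.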

Additional observations from a re-analysis of the deposited data

Results flagged for a closer look

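Among the deficient and control tumor groups of the 9 genes (18 groups tested), 3 held an array whose gap to its nearest neighbour was large for the group's range; chance gives such a gap in about 1 of 20 groups. Egr3 was 8.54 in Dnmt3a-deficient tumor 2, with 6.72 to 6.81 in the other 3 deficient tumors. Cd69 was 7.80 in the same tumor, with 6.19 to 6.36 in the other 3. Nr4a1 was 7.61 in Dnmt3a-deficient tumor 1, with 9.67 to 9.97 in the other 3.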

How the results depend on the processing

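Each gene was refitted under up to 23 alternatives, and 553 of 618 values kept their direction and their side of the threshold. The number of the 9 genes called lower in deficient against control tumors, 0 with all arrays, was 4 with array weights, 2 without control tumors 1 and 2 together, and 0 to 3 when single arrays were left out. The number called lower in control tumors against normal thymocytes, 2 with all arrays, was 1 after cyclic loess, 1 without the dimmest 50% of genes (Nr4a3 is among those left out), 1 with array weights, 0 without control tumors 1 and 2, 1 without control tumors 3 and 4, and 0 to 3 without single arrays. With Nr4a1 added, the number in control tumors against normal thymocytes was 3 in a fit of those 2 groups alone and 3 with the replicate block. The number in deficient tumors against normal thymocytes was 3 to 6 without single arrays and 5 or 6 otherwise. None of the 9 was called higher anywhere.

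Signs turned for differences that were not called. In deficient against control tumors Junb became -0.05 after a second quantile normalization and -0.05 after cyclic loess, Cd69 0.20 without control tumors 3 and 4, Fos -0.17 without control tumors 1 and 2, Cd8a -0.25 with the replicate block, and Myc 0.12 without control tumors 3 and 4. Leaving out single arrays gave -0.65 to 0.14 for Nr4a1 (highest without deficient tumor 1), -0.04 to 0.60 for Fos (lowest without deficient tumor 4), -0.67 to 0.00 for Cd69 (highest without control tumor 4) and -0.25 to 1.12 for Cd8a (lowest without control tumor 5). In control tumors against normal thymocytes Egr3, Fos and Cd69 became -0.12, -0.19 and -0.26 without control tumors 3 and 4, and Cd69 ran from -0.07 (without control tumor 4) to 0.39 over single arrays. In deficient tumors against normal thymocytes Cd69 became 0.01 after median centring and 0.02 after cyclic loess, and ran from -0.45 (without deficient tumor 2) to 0.09 over single arrays. The cause was not tested.

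Correlations between same-numbered arrays ran from -0.13 to 0.34, highest for deficient with control tumor 1. With few arrays per group they cannot show whether the numbers mark a pairing. With the replicate block, none of the 9 was called between the tumor groups and 104 of all genes were, Nr4a1 was called lower in control tumors against normal thymocytes (-1.52, adjusted p = 0.0222), and Junb lost its call in deficient tumors (-0.63, adjusted p = 0.0571). The count of all genes called between the tumor groups was 158 with all arrays, 378 after median centring, 1 in a fit of the 2 groups alone, 3328 with array weights, 4886 without control tumors 1 and 2, 6 without control tumors 3 and 4, and 16 to 1482 without single arrays.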

Other observations

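Deficient tumor 2 also differed from the other deficient tumors in lineage and selection genes, looked up after its early genes had been seen. It had the lowest Cd8a (8.23, against 10.98 to 11.37 in the other deficient tumors) and Cd4 (8.80, against 9.89 to 10.80), and the highest Ccr7 (10.08, against 7.93 to 8.32), Il2ra (6.71, against 5.53 to 5.96), Tnfrsf9 (7.20, against 6.14 to 6.23) and Cd5 (10.67, against 7.93 to 9.52). Normal thymocytes had 12.53 to 12.63 for Cd8a, 11.66 to 11.73 for Cd4, 10.03 to 10.13 for Ccr7, 6.57 to 7.11 for Il2ra, 7.95 to 8.42 for Tnfrsf9 and 11.33 to 11.39 for Cd5, so deficient tumor 2 lay within the normal range for Ccr7 and Il2ra and below it for the other 4. These are values of a single array and were not tested.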
